A study of Rattus norvegicus with 4 samples.

Results

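The 10 genes Slc4a1, Slc26a4, Slc4a9, Atp6v1g3, Atp6v0d2, Atp6v1b1, Foxi1, Rhcg, Rhbg and Car2 serve acid-base transport in the intercalated cells of the kidney. They were taken by symbol from spatial transcriptomic matrices of 4 rat kidney sections, and each symbol was found once among the 32402 features, of which 18473 had a UMI in at least 1 section. A UMI (unique molecular identifier) stands for 1 captured RNA molecule, and a spot is a small round area of the section, often covering more than 1 cell and cell type. Their levels were set side by side in whole sections, in kidney zones and in regions rich in distal tubule or collecting duct RNA, and Slc4a1 of the acid-secreting cells was set against Slc26a4 and Slc4a9 of the base-secreting cells.

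All 4 kidneys came from Sprague-Dawley rats and were cut frozen at 10 µm. The PAN_LS-FMD rat was injected with puromycin aminonucleoside (PAN), a toxin of podocytes, and then received a fasting-mimicking diet low in salts (LS-FMD) in 6 cycles. The PAN rat had the injection and ate ad libitum. Both injected rats were examined 5 months past the toxin, which was 6 weeks past the end of treatment. The healthy_LS-FMD rat was not injected, had 1 cycle of the diet and was analysed after 72 h of refeeding. The healthy rat had no treatment. Animal age was not given in the sources used here. Each group was a single section without replicates, so every difference is one between 2 sections, no test was possible, and all intervals are 95% intervals of counting error alone.

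Intercalated cells are scattered through the connecting tubule and the collecting duct among the principal cells, which reabsorb sodium and water. Type A cells secrete acid: a proton pump (V-ATPase) of the apical membrane moves protons into the urine, carbonic anhydrase 2 supplies them, and the basolateral chloride-bicarbonate exchanger AE1, the product of Slc4a1, returns bicarbonate to the blood. Type B cells secrete bicarbonate through pendrin, the product of Slc26a4, and carry the bicarbonate transporter AE4, the product of Slc4a9, on the basolateral side. Pendrin cells are known from the cortex, whereas type A cells reach from the cortex into the medulla.

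The remaining genes have known roles on one or both sides of this division. Atp6v1b1, Atp6v1g3 and Atp6v0d2 encode the B1, G3 and d2 subunits of the V-ATPase, which are enriched in intercalated cells. Foxi1 is the forkhead transcription factor required for intercalated cell identity in mice. Rhcg and Rhbg encode ammonia channels of the apical and basolateral membranes, and they are also known from principal and connecting tubule cells. Car2 encodes the cytosolic carbonic anhydrase, which other tubule segments and red blood cells contain as well.

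Promoter sequences are shown because Foxi1 is known to act on V-ATPase subunit genes, so that the forkhead core motif is the sequence of interest at these members. RefSeq promoters (build GRCr8) were at hand for 7 of the 10 genes, namely Slc26a4, Slc4a9, Atp6v1g3, Atp6v1b1, Foxi1, Rhcg and Rhbg. The letters TGTTTA, searched on both strands in the 250 bases before the transcript start, were found in 2 of the 7, against 12.1% of all 33469 promoters. The longer form TGTTTAC, which contains the first motif, was found at Atp6v1b1, against 3.21% of all promoters. Both promoters are printed 5′ to 3′ with these motifs in capitals. That of Atp6v1b1 lies at chr4:117781194-117781443 on the plus strand with its motif starting at position -93. That of Atp6v1g3 lies at chr13:52362082-52362331 on the plus strand with 2 motifs, the first starting at position -234, and this transcript starts within the annotated span of its gene. A match describes letters and is not a site of binding.
Atp6v1b1: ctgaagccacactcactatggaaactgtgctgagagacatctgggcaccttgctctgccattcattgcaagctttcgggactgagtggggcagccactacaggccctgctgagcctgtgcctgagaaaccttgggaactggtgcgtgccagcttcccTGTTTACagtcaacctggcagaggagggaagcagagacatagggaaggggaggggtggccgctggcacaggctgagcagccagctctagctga
Atp6v1g3: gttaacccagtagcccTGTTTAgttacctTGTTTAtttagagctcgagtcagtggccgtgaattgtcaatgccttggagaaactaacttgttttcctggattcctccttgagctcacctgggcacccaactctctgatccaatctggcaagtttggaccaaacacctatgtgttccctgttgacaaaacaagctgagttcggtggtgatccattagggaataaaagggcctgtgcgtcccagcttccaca

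The sections held 2187 to 2866 spots with at least 500 UMIs and 24924170 to 58568499 UMIs in all, with a median of 14959 UMIs per spot in the PAN_LS-FMD section, 8482 in PAN, 8823 in healthy_LS-FMD and 19531 in healthy. Regions led by distal tubule genes (Slc12a3, Calb1) and collecting duct genes (Aqp2, Aqp3) were present, as the kidney label requires. The 4 sections shared 1221 barcodes, since slides of this kind carry the same set of spot barcodes. The healthy section was processed with another version of Space Ranger than the rest, and its haemoglobin RNA was 1.59% of UMIs against 0.161 to 0.234% in the others.

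Whole sections are described first. The 10 genes together made up 0.137% of UMIs in the PAN_LS-FMD section, 0.122% in PAN, 0.249% in healthy_LS-FMD and 0.153% in healthy. The healthy_LS-FMD section had the highest level of each of the 10 genes, and the PAN section had the lowest level of 8 of them, the exceptions being Slc4a1, lowest in healthy, and Car2, lowest in PAN_LS-FMD. Levels are in CPM, that is UMIs scaled to 1000000 per section or zone. In such bulk sums, fewer cells of a type and less RNA per cell cannot be told apart.

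Among the anion exchangers, Slc4a1 stood at 138 CPM (134 to 142) in the PAN_LS-FMD section, 116 (112 to 120) in PAN, 329 (322 to 336) in healthy_LS-FMD and 112 (109 to 115) in healthy. Slc26a4 stood at 56.8, 43.8, 83.5 and 56.8 CPM in the same order. The healthy_LS-FMD section was thus the highest for both exchangers, by a wider margin for Slc4a1, and for Slc26a4 the PAN_LS-FMD and healthy sections could not be separated within counting error. Slc4a9 was the sparsest member, at 5.29 CPM (4.56 to 6.11), 4.73 (3.92 to 5.67), 7.46 (6.44 to 8.60) and 5.16 (4.59 to 5.77), and its intervals overlapped in all sections but healthy_LS-FMD.

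Among the proton pump subunits, Atp6v1g3 had 241 CPM in the PAN_LS-FMD section, 216 in PAN, 382 in healthy_LS-FMD and 311 in healthy. Atp6v0d2 had 52.3, 41.8, 87.7 and 57.1 CPM and Atp6v1b1 had 113, 65.0, 177 and 93.7 CPM in that order. Atp6v1b1 was the subunit whose PAN_LS-FMD level lay above the healthy one, while Atp6v1g3 and Atp6v0d2 lay below it. Foxi1 had 22.4, 17.1, 43.1 and 22.0 CPM, so the PAN_LS-FMD and healthy sections had overlapping intervals for the transcription factor.

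The ammonia channels were the members furthest below healthy in the PAN section. Rhcg stood at 101 CPM in the PAN_LS-FMD section, 66.4 in PAN, 217 in healthy_LS-FMD and 102.7 in healthy, and Rhbg at 93.9, 68.9, 243 and 114. Car2 stood at 550.1, 579.9, 917 and 654 CPM, and it was the member whose PAN level lay above its PAN_LS-FMD level.

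**Figure D1:**
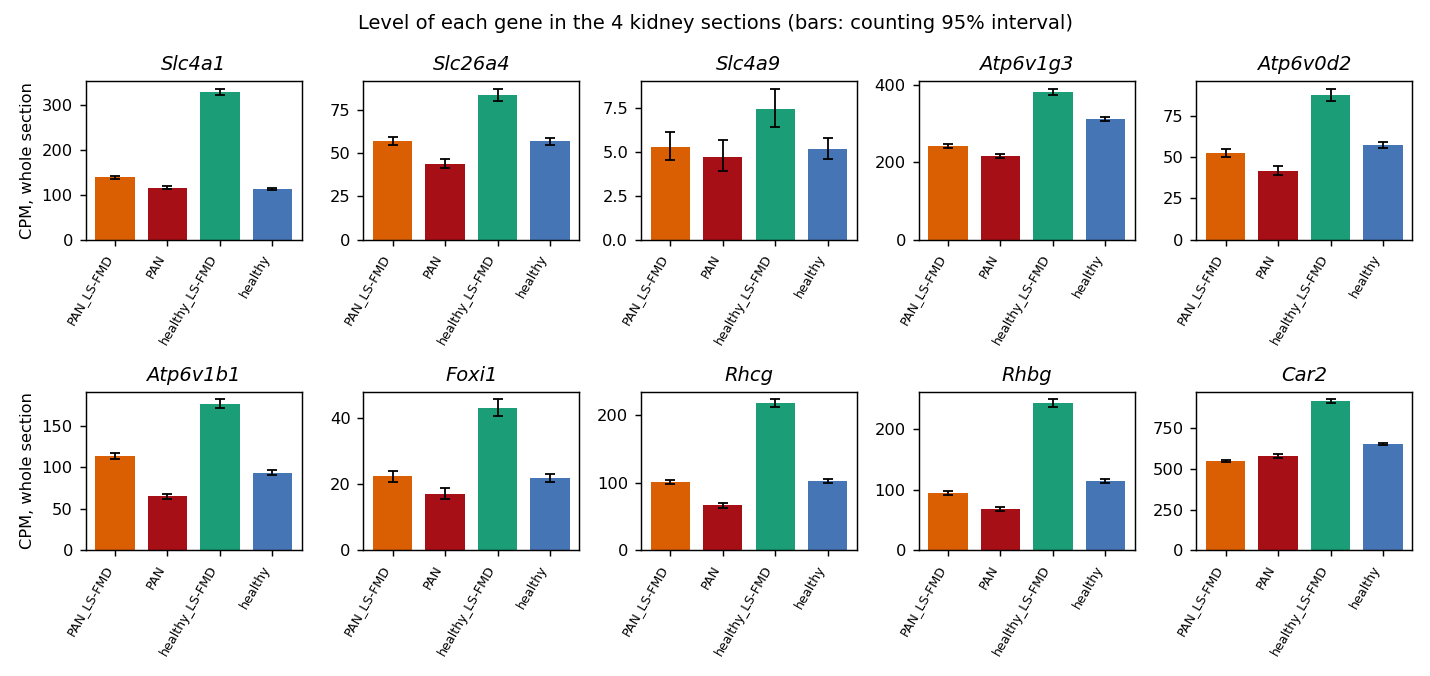
Level of each of the 10 genes in CPM over all spots of a section, 1 panel per gene, with the sections in the order PAN_LS-FMD, PAN, healthy_LS-FMD and healthy. Black bars are exact Poisson 95% intervals. The healthy_LS-FMD bar is the tallest in every panel, at 329 CPM for Slc4a1 against 112 CPM in healthy.

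PAN_LS-FMD against PAN compares injected kidneys with and without the diet cycles. Over whole sections, Atp6v1b1 was 1.74-fold higher (1.64 to 1.85) and Rhcg 1.52-fold higher (1.44 to 1.62) in the PAN_LS-FMD section, and the other 8 genes differed by less than 1.5-fold. These were 2 of 10 members, against 10.6% of the 12850 measured genes, and no member was lower, against 37.4% of all genes. The median log2 fold of the members was 0.34 and that of all measured genes -0.37. When sections were scaled by median of ratios, which brings the all-gene median to 0.01, 7 members were higher, against 20.2% of all genes, and none was lower, against 23.3%.

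The comparison of PAN with healthy concerned the injected kidney without the diet. Rhbg was 1.66-fold lower (1.57 to 1.75) and Rhcg 1.55-fold lower (1.46 to 1.63) in the PAN section. These were 2 of 10 members, against 11.1% of all 13208 measured genes, and no member was higher, against 46% of all genes. Slc4a1 was level with healthy, at a fold of 1.03 (0.987 to 1.08). The members' median log2 fold was -0.41 beside 0.51 for all genes, and scaled by median of ratios 9 members were lower, against 23.5% of all genes. Slc4a1 was the member that did not pass.

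In the PAN_LS-FMD section set against healthy, none of the 10 genes differed by 1.5-fold over the whole section. Among all genes, 8.43% were higher and 6.44% lower. The folds ran from 0.776 for Atp6v1g3 to 1.23 for Slc4a1, with a median log2 of -0.01 beside 0.11 for all genes. Scaled by median of ratios the count was also 0 in both directions. The comparisons of PAN_LS-FMD, PAN and healthy_LS-FMD with healthy all share the healthy section.

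The healthy_LS-FMD section, set against healthy, concerned a single diet cycle with refeeding. Slc4a1 was 2.93-fold higher (2.84 to 3.03), Rhbg 2.13-fold (2.05 to 2.20), Rhcg 2.12-fold (2.04 to 2.20), Foxi1 1.96-fold (1.81 to 2.13), Atp6v1b1 1.89-fold (1.81 to 1.96) and Atp6v0d2 1.54-fold (1.46 to 1.62). These were 6 of 10 members, against 29.3% of all genes, and no member was lower, against 6.71% of all genes. Slc26a4 at 1.47-fold, Slc4a9 at 1.45-fold, Car2 at 1.40-fold and Atp6v1g3 at 1.23-fold did not pass. The median log2 fold was 0.77 beside 0.33 for all genes, and by median of ratios 4 members were higher, against 12.1% of all genes.

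Clusters of spots, made in each section without the 10 genes or other intercalated cell genes, were assigned to cortex, outer stripe, medulla or blood-rich areas by marker lists of other cell types. In cortex, Slc4a1 had 104 CPM in the PAN_LS-FMD section, 40.3 in PAN, 322 in healthy_LS-FMD and 100.2 in healthy. Slc26a4 had 81.0 CPM in the PAN_LS-FMD cortex, 59.6 in PAN, 240 in healthy_LS-FMD and 106 in healthy. The PAN cortex was the lowest and the healthy_LS-FMD cortex the highest for both genes, and the same held for each other member except Car2, which ran from 492 to 713 CPM and was lowest in PAN_LS-FMD.

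In the PAN cortex 9 of 10 members were lower than in the healthy cortex, against 11.5% of all genes, and none was higher, against 42.5%. Principal cell genes were lower with them, 7 of 8, and their list summed to 512 CPM in the PAN cortex and 1070 in the healthy cortex. Per 100 UMIs of that list the members together had 205 UMIs (199 to 212) in PAN and 168 (165 to 171) in healthy. Car2 made up 106 and 52.3 of these values. Slc4a1 had 7.87 (7.15 to 8.66) and 9.37 (8.93 to 9.82), Rhbg 9.07 and 14.4, and Slc26a4 11.7 and 9.92. Rhbg was 3.32-fold lower (3.02 to 3.65), Rhcg 2.80-fold (2.56 to 3.06), Atp6v1b1 2.54-fold (2.33 to 2.78), Slc4a1 2.49-fold (2.24 to 2.76) and Slc26a4 1.78-fold (1.63 to 1.94). Car2 was the exception, at 545 CPM in PAN and 559 in healthy. The PAN cortex also held far more RNA of injury and matrix lists, all 8 genes of each list being in the files. The injury list summed to 535, 20000, 736 and 475 CPM in the PAN_LS-FMD, PAN, healthy_LS-FMD and healthy cortex, with Krt19 at 0 in all 4, and the matrix list to 432, 2793, 356 and 440.4 CPM, with Postn at 0 in healthy_LS-FMD. The macrophage list summed to 698, 2403, 325 and 468 CPM. With the PAN clusters led by matrix or injury lists left out, the count of lower members was again 9.

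In the PAN_LS-FMD cortex 6 of 10 members were higher than in the PAN cortex, against 11.5% of all genes, and none was lower, against 28.9%. Slc4a1 was 2.59-fold higher (2.32 to 2.89), Atp6v1b1 2.58-fold (2.35 to 2.83), Rhcg 2.17-fold (1.97 to 2.39) and Rhbg 2.16-fold (1.94 to 2.40). Slc26a4 was 1.36-fold higher (1.23 to 1.5) and did not pass. All 8 principal cell genes were higher too, and their list summed to 1095 CPM in the PAN_LS-FMD cortex and 512 in the PAN cortex. Per 100 UMIs of that list the members together had 126 UMIs (123 to 129) in PAN_LS-FMD and 205 (199 to 212) in PAN. Car2 made up 44.9 and 106 of these values, while Slc4a1 had 9.52 (8.97 to 10.1) and 7.87 (7.15 to 8.66). Against the healthy cortex, 4 members were lower in PAN_LS-FMD, against 4.44% of all genes, and none was higher, against 13.5%. These were Atp6v1g3 (1.81-fold), Slc4a9 (1.72-fold), Rhbg (1.54-fold) and Atp6v0d2 (1.5-fold).

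That count depended on 1 region. A region of 124 spots in the PAN_LS-FMD section, led by Klk1c9, Calb1 and Slc26a4, was counted as blood-rich because its red blood cell score (1.43) exceeded its distal tubule score (1.15). With the zones assigned by nephron marker lists alone, a rule added after seeing the data, this region joined the cortex. Slc26a4 then stood at 121 CPM in the PAN_LS-FMD cortex and 101 in the healthy cortex, 0 members were lower against 4.64% of all genes, and 9 members were higher than in PAN against 11.8% of all genes.

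In the healthy_LS-FMD cortex 9 of 10 members were higher than in the healthy cortex, against 25.6% of all genes, and none was lower, against 7.72%. Slc4a1 was 3.21-fold higher (3.02 to 3.41), Atp6v1b1 2.43-fold (2.30 to 2.57), Rhbg 2.41-fold (2.29 to 2.54) and Slc26a4 2.26-fold (2.12 to 2.41). Car2, at 713 CPM against 559, did not pass. All 8 principal cell genes were higher too, and their list summed to 2591 CPM in the healthy_LS-FMD cortex and 1070 in the healthy cortex. Per 100 UMIs of that list the members together had 128 UMIs (126 to 131) in healthy_LS-FMD and 168 (165 to 171) in healthy, while Slc4a1 alone had 12.4 (11.9 to 13.0) and 9.37 (8.93 to 9.82). Car2 made up 27.5 and 52.3 of the summed values.

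Medullary spots gave another picture. Slc4a1 had 267 CPM in the PAN_LS-FMD medulla, 361 in PAN, 569 in healthy_LS-FMD and 229 in healthy, and Slc26a4 had 25.2, 59.2, 16.3 and 62.4 CPM in that order. Slc4a1 therefore stood above healthy in all 3 other sections, and Slc26a4 was lowest in those of the diet-fed rats. In PAN against healthy, Slc4a1 (1.58-fold, 1.49 to 1.68) and Slc4a9 (1.67-fold, 1.16 to 2.39) were higher, 2 of 10 members against 44.2% of all genes, and none was lower against 12.1%. In PAN_LS-FMD against PAN, 4 members were lower, against 41.1% of all genes, and none was higher, against 11.7%. In PAN_LS-FMD against healthy, 2 were lower (Slc26a4 2.48-fold, Atp6v1g3 1.96-fold), against 7.76%, and none was higher, against 7.25%. In healthy_LS-FMD against healthy, 4 were higher, led by Slc4a1 (2.49-fold), against 36.6% of all genes, and the base-secreting genes Slc26a4 (3.83-fold) and Slc4a9 (2.07-fold) were lower, against 9.89%. These counts depended on how the zone was drawn. With zones scored spot by spot, 0 members passed in either direction in the 3 comparisons of PAN_LS-FMD with PAN, PAN with healthy and PAN_LS-FMD with healthy, and Slc26a4 was 1.15-fold and Slc4a9 1.24-fold higher in healthy_LS-FMD than in healthy.

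**Figure D2:**
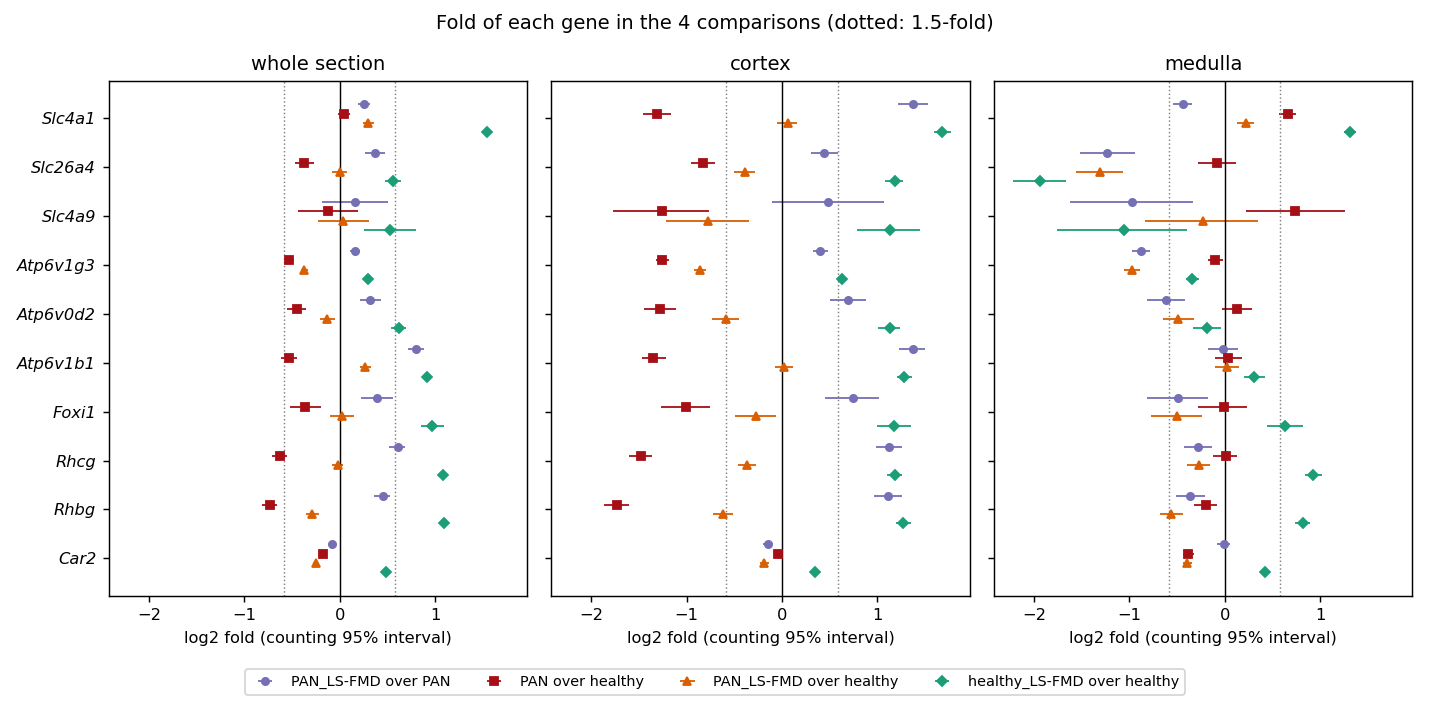
Log2 fold of each gene in the 4 comparisons over whole sections, cortex and medulla, with 95% counting intervals. Dotted lines mark 1.5-fold. In cortex 9 of 10 genes lie left of the dotted line in PAN over healthy and 9 of 10 lie right of it in healthy_LS-FMD over healthy.

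The outer stripe, a zone of proximal tubule, had lower Slc26a4 than the cortex in all 4 sections. Car2 was above its cortical level there in all 4, and in the PAN section Slc4a1 and Rhbg were too. Slc4a1 had 95.1 CPM there in the PAN_LS-FMD section, 85.8 in PAN, 160 in healthy_LS-FMD and 63.7 in healthy, and Slc26a4 had 15.1, 13.8, 24.2 and 18.4 CPM. Between PAN_LS-FMD and PAN, and between PAN_LS-FMD and healthy, none of the 10 passed 1.5-fold in either direction in this zone. The backgrounds were 9.79% higher and 42.4% lower in PAN_LS-FMD against PAN, and 6.71% higher and 6.91% lower in PAN_LS-FMD against healthy. In PAN against healthy, 1 was higher, against 47.1% of all genes, and none was lower, against 10.5%. This was Slc4a9, on 18 UMIs in PAN and 37 in healthy, at 1.54-fold (0.825 to 2.77), an interval that includes equal levels. In healthy_LS-FMD against healthy, 5 were higher, led by Slc4a1 (2.51-fold, 2.33 to 2.70), against 18.5% of all genes, and none was lower, against 6.36%.

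The balance of acid- and base-secreting RNA was taken as the share of Slc4a1 in the UMIs of Slc4a1, Slc26a4 and Slc4a9. Over whole sections the share was 69.0% (67.9 to 70.1) in PAN_LS-FMD, 70.5% (69.0 to 71.9) in PAN, 78.3% (77.5 to 79.1) in healthy_LS-FMD and 64.5% (63.5 to 65.4) in healthy. The healthy_LS-FMD share was the highest and the healthy share the lowest. The ratio of acid to base UMIs was 1.99 times that of healthy in healthy_LS-FMD (1.87 to 2.12), 1.32 times in PAN (1.22 to 1.42) and 1.23 times in PAN_LS-FMD (1.15 to 1.31). Between PAN_LS-FMD and PAN it differed within counting error, at 0.934 (0.857 to 1.02). The sections differed in zone make-up. Medulla held 17.9% of UMIs in PAN_LS-FMD, 18.6% in PAN, 30.5% in healthy_LS-FMD and 21.4% in healthy, and cortex held 32.6%, 45.9%, 27.6% and 32.5%. No whole-section value was adjusted for this, and how much of each difference follows zone make-up was not tested.

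The share differed by zone. In cortex it was 54.7% in PAN_LS-FMD, 38.8% in PAN, 55.3% in healthy_LS-FMD and 46.5% in healthy, and in the outer stripe 84.4%, 84.0%, 85.9% and 76.1%. In medulla it was 89.6% (88.1 to 91.0), 83.7% (82.0 to 85.3), 96.7% (96.1 to 97.2) and 76.8% (75.4 to 78.2). Every section had its lowest share in cortex among these 3 zones. The PAN cortex was the one most weighted to the base-secreting genes, with an acid to base ratio 0.731 times that of healthy (0.639 to 0.835), while the PAN_LS-FMD cortex was at 1.90 times the PAN ratio (1.64 to 2.20). With the zones by nephron lists alone, the cortical shares were 48.9% in PAN_LS-FMD, 39.6% in PAN, 55.8% in healthy_LS-FMD and 47.3% in healthy. The medullary shares depended on how the zone was drawn. With zones scored spot by spot they were 71.3%, 78.8%, 84.8% and 68.6%, so PAN_LS-FMD then lay below PAN. With the members kept among the clustered genes they were 89.4%, 84.2%, 85.9% and 77.3%, so healthy_LS-FMD then lay below PAN_LS-FMD.

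A pair of regions in each section sharpened this contrast. One was the cluster with the highest distal convoluted and connecting tubule score, with Klk1c9 and Calb1 among its leading genes in all 4 sections and 106 to 187 spots. The other had the highest principal cell score, had Fxyd4 and Aqp3 among its leading genes in all 4, and held 92 to 139 spots. These 2 regions per section were picked out after the data had been seen.

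In the Calb1-led region, Slc26a4 had 357 CPM in the PAN_LS-FMD section, 217 in PAN, 575 in healthy_LS-FMD and 315 in healthy. Slc4a1 had 239 CPM there in PAN_LS-FMD, 87.2 in PAN, 618 in healthy_LS-FMD and 289 in healthy. The acid share was 38.4% (35.6 to 41.2), 27.5% (23.2 to 32.0), 49.4% (47.1 to 51.7) and 44.9% (42.2 to 47.7), and it was the lowest of any cluster in 3 sections and the fourth lowest in healthy. All members but Slc26a4 and Car2 were lower in PAN than in healthy, 8 of 10 against 9.85% of all genes, led by Rhbg (4.33-fold, 3.64 to 5.18) and Slc4a1 (3.32-fold, 2.71 to 4.09). None was higher there, against 31.8% of all genes. All members but Car2 were higher in PAN_LS-FMD than in PAN, 9 of 10 against 9.87% of all genes, led by Slc4a1 (2.75-fold, 2.23 to 3.40), and none was lower, against 23.1%. In PAN_LS-FMD against healthy, Atp6v1g3 (1.61-fold) and Rhbg (1.68-fold) were lower, 2 of 10 against 5.65% of all genes, and none was higher, against 13.4%. In healthy_LS-FMD against healthy 5 were higher, led by Slc4a1 (2.14-fold, 1.92 to 2.37), against 22.7%, and none was lower, against 7.49%. Calb1 had 1070 CPM in this region in PAN_LS-FMD, 450.5 in PAN, 2499 in healthy_LS-FMD and 1614 in healthy. Slc12a3 had 1258, 1158, 1579 and 1244 CPM in that order. The regions thus differed in make-up, and how much of the members' differences follows this was not tested. The principal cell list differed here too, at 2921 CPM in PAN_LS-FMD, 1659 in PAN, 5663 in healthy_LS-FMD and 3304 in healthy. Per 100 UMIs of that list, the members together had 126, 135, 122 and 153 UMIs, of which Car2 had 18.8, 33.2, 17.5 and 21.7 and Slc4a1 8.20, 5.26, 10.9 and 8.76.

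In the Fxyd4- and Aqp3-led region, Slc4a1 had 701 CPM in PAN_LS-FMD, 1386 in PAN, 1483 in healthy_LS-FMD and 545 in healthy. Slc26a4 had 12.9 CPM there in PAN_LS-FMD (19 UMIs), 220.3 in PAN (183 UMIs), 15.5 in healthy_LS-FMD (15 UMIs) and 169 in healthy (485 UMIs). The regions of both diet-fed rats thus held little Slc26a4, and the acid share was 96.3% (95 to 97.3) in PAN_LS-FMD, 83.6% (81.5 to 85.5) in PAN, 98.4% (97.6 to 98.9) in healthy_LS-FMD and 74.5% (72.5 to 76.3) in healthy. Relative to healthy, the ratio of acid to base UMIs was 8.87 times as high in PAN_LS-FMD (6.36 to 12.7) and 20.6 times in healthy_LS-FMD (13.6 to 32.6). In PAN_LS-FMD against PAN all 10 members were lower, against 40.1% of all genes, and 0 were higher, against 12.4%, with Slc26a4 17.1-fold lower (10.6 to 29.1). In PAN against healthy 6 were higher, led by Slc4a9 (2.91-fold, 1.89 to 4.45) and Slc4a1 (2.54-fold, 2.35 to 2.75), against 41.4%, and none was lower, against 12.9%. In PAN_LS-FMD against healthy 5 were lower, against 8.71%, and none was higher, against 8.68%. In healthy_LS-FMD against healthy 4 were higher, among them Slc4a1 (2.72-fold, 2.53 to 2.92), against 42.2%, and Slc26a4 (10.9-fold, 6.57 to 19.7) and Slc4a9 (1.92-fold, 0.935 to 4.43) were lower, against 13.7%. These regions did not have the same make-up or surroundings. The principal cell list summed to 2668 CPM in PAN_LS-FMD, 4811 in PAN, 9337 in healthy_LS-FMD and 3691 in healthy. The proximal S3 list summed to 24991, 1320, 3581 and 21265 CPM. Over whole sections that list summed to 20838, 2371, 15890 and 20699 CPM. Its low value in the PAN region was thus shared with the whole PAN section. Per 100 principal cell UMIs, Slc4a1 had 26.3 (24.5 to 28.1) in PAN_LS-FMD and 28.8 (27.0 to 30.8) in PAN. Slc26a4 had 0.483 and 4.58, and Car2, the member higher in PAN_LS-FMD by this measure, had 31.1 and 26.4. The inner medulla list, of which 6 of 7 genes were in the files, summed to 4754 CPM in PAN_LS-FMD, 1273 in PAN, 4209 in healthy_LS-FMD and 3038 in healthy, with Bst1 and Slc14a2 at 0 in all 4, and the proximal S1 and S2 list to 2938, 1420, 811 and 4175 CPM, with Slc4a4 at 0 in PAN_LS-FMD and healthy_LS-FMD. Depth in the kidney and condition cannot be told apart in these regions.

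**Figure D3:**
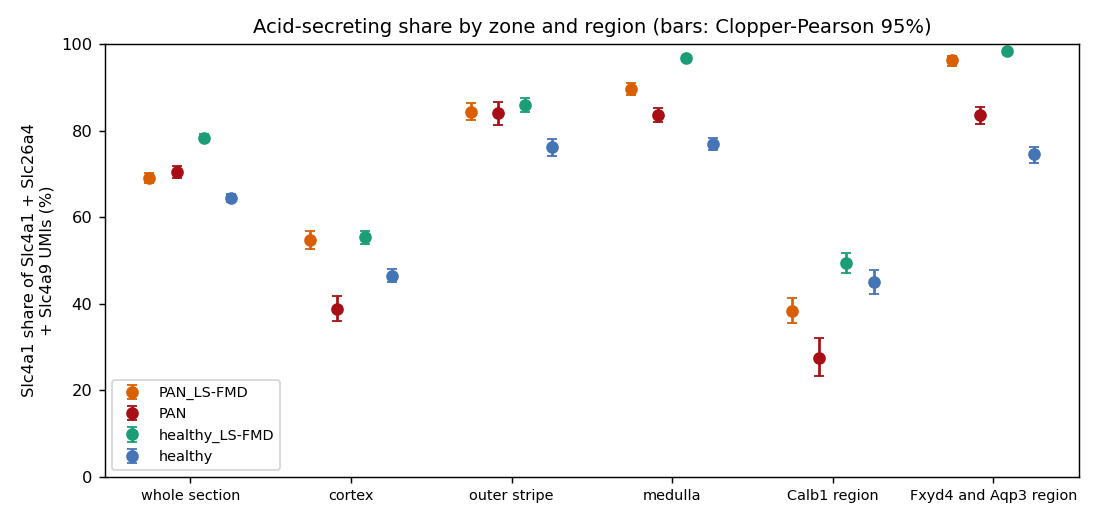
Share of Slc4a1 in the UMIs of Slc4a1, Slc26a4 and Slc4a9 in percent, by zone and region, with the sections in the order PAN_LS-FMD, PAN, healthy_LS-FMD and healthy from left to right and Clopper-Pearson 95% intervals. The cortex and the Calb1-led region lie lowest, and the medulla and the Fxyd4- and Aqp3-led region reach 96.7% and 98.4% in healthy_LS-FMD.

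Across the 56 clusters of the 4 sections, Slc4a1 was less like Slc26a4 than like Slc4a9. The Pearson correlation of log2(CPM + 1) with Slc4a1, centred within each section, was 0.19 for Slc26a4 (-0.07 to 0.50 in single sections) and 0.59 for Slc4a9 (0.34 to 0.74), a description over clusters that share section and depth. Among 10890 genes, the 5 most like Slc4a1 were LOC100910650 (0.95), the water channel gene Aqp2 (0.94), the transcription factor gene Dmrt2 (0.93), the mucin gene Muc20 (0.91) and the BMP antagonist gene Grem1 (0.91). Those most like the sum of Slc26a4 and Slc4a9 were the homeobox gene Hmx2 (0.98), the insulin receptor-related receptor gene Insrr (0.97), the potassium channel subunit gene Kcne1 (0.96), Coch (0.95) and the glycosyltransferase gene A4galt (0.93). Rhbg (0.89), Rhcg (0.83) and Foxi1 (0.80) were closer to Slc4a1 than to the base-secreting sum (0.60, 0.64 and 0.67), Atp6v1b1 was closer to the base-secreting sum (0.82) than to Slc4a1 (0.68), and Atp6v1g3 stood at 0.76 and 0.77. Car2 correlated with Slc4a1 at 0.73 and with the base-secreting sum at -0.15.

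**Figure D4:**
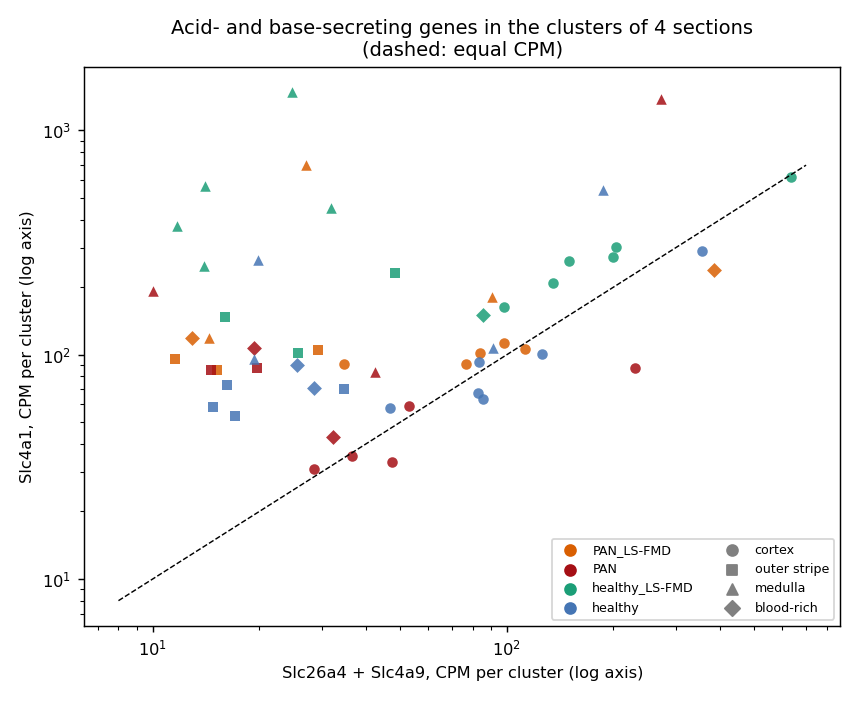
Slc4a1 against the sum of Slc26a4 and Slc4a9 in CPM on log axes, 1 point per cluster of spots, coloured by section and shaped by zone. The dashed line marks equal CPM. Medullary clusters lie above the line, up to 1483 CPM of Slc4a1 in healthy_LS-FMD, and the Calb1-led regions of all 4 sections lie on or below it, with acid shares of 27.5 to 49.4%.

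The balance was also read from Dmrt2, Hmx2 and Insrr. These were chosen because they follow Slc4a1 or the base-secreting genes over the same clusters, so they are no independent reading. The share of Dmrt2 in the UMIs of the 3 genes was 19.8% (18.0 to 21.7) over the whole PAN_LS-FMD section, 25.1% (22.7 to 27.7) in PAN, 35.5% (33.4 to 37.6) in healthy_LS-FMD and 26.4% (24.6 to 28.2) in healthy. As with Slc4a1, healthy_LS-FMD was the highest. The higher acid share of PAN_LS-FMD and PAN relative to healthy was not seen with these genes, whose acid to base ratio was 0.690 and 0.935 times that of healthy. In the Fxyd4- and Aqp3-led region the Dmrt2 share was 76.6% in PAN_LS-FMD, 34.5% in PAN, 91.5% in healthy_LS-FMD and 37.5% in healthy.

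Single spots were compared after thinning each to 4000 UMIs, which left out 13 spots of PAN_LS-FMD, 246 of PAN, 150 of healthy_LS-FMD and 4 of healthy. At least 1 Slc4a1 UMI was then found in 36.2% of PAN_LS-FMD spots, 25.1% of PAN, 62.0% of healthy_LS-FMD and 31.8% of healthy, against 75.5, 39.4, 83.1 and 74.2% without thinning. Slc26a4 was found in 26.5% of cortical spots in PAN_LS-FMD, 16.3% in PAN, 52.8% in healthy_LS-FMD and 26.9% in healthy, and in 6.20, 6.52, 7.69 and 7.55% of outer stripe spots. The cortical shares differed widely between sections while those of the outer stripe were alike and low. Spots with Slc4a1 had Slc26a4 or Slc4a9 more often than spots without it, in 21.5% against 17.6% in PAN_LS-FMD, 15.9% against 12.8% in PAN, 26.5% against 18.5% in healthy_LS-FMD and 24.0% against 14.3% in healthy. The intervals of the 2 shares overlapped in PAN_LS-FMD and in PAN, and not in healthy_LS-FMD or healthy.

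Red blood cells carry AE1 as well, so Slc4a1 was read beside haemoglobin. In the 10% of spots with the most haemoglobin RNA, Slc4a1 stood at 206 CPM in PAN_LS-FMD, 169 in PAN, 247 in healthy_LS-FMD and 112 in healthy. In the other spots it stood at 130, 110, 339 and 112 CPM. In the healthy section, where haemoglobin was 12.7% of UMIs in the haemoglobin-rich spots and 0.462% in the rest, Slc4a1 stood at the same CPM in both. Without the haemoglobin-rich spots the acid share was 68.0% in PAN_LS-FMD, 69.7% in PAN, 79.1% in healthy_LS-FMD and 64.3% in healthy.

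Principal cells share the collecting duct with intercalated cells, so their RNA was read beside the members. A list of 8 principal cell genes, all found and none at 0, summed to 999 CPM in PAN_LS-FMD, 625 in PAN, 2120 in healthy_LS-FMD and 885 in healthy. In healthy_LS-FMD against healthy, 8 of 8 of them were higher, against 29.3% of all genes, with Aqp2 at 949 against 335 CPM and Aqp4 at 39.3 against 7.97 CPM. Per 100 UMIs of this list, the members together had 138 UMIs (136 to 140) in PAN_LS-FMD, 195 (191 to 199) in PAN, 117 (116 to 119) in healthy_LS-FMD and 173 (171 to 175) in healthy, so healthy_LS-FMD was here the lowest section. Car2 made up 55.1, 92.9, 43.2 and 73.9 of these values. Slc4a1 was at 13.8, 18.5, 15.5 and 12.7 and Slc26a4 at 5.69, 7.02, 3.94 and 6.41 per 100 principal cell UMIs in the same order. Relative to this list, Slc4a1 thus stood above healthy in healthy_LS-FMD and Slc26a4 below it. Slc4a1 was highest in PAN (17.8 to 19.3), while the interval of Slc26a4 in PAN (6.59 to 7.46) overlapped that of healthy (6.19 to 6.64). With Aqp2 alone as the principal cell gene, the Slc4a1 difference between healthy_LS-FMD and healthy was smaller. Slc4a1 had 8328 UMIs beside 24029 of Aqp2 in healthy_LS-FMD, and 6574 beside 19642 in healthy. How much of each difference follows the amount of collecting duct in a section was not tested.

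**Figure D5:**
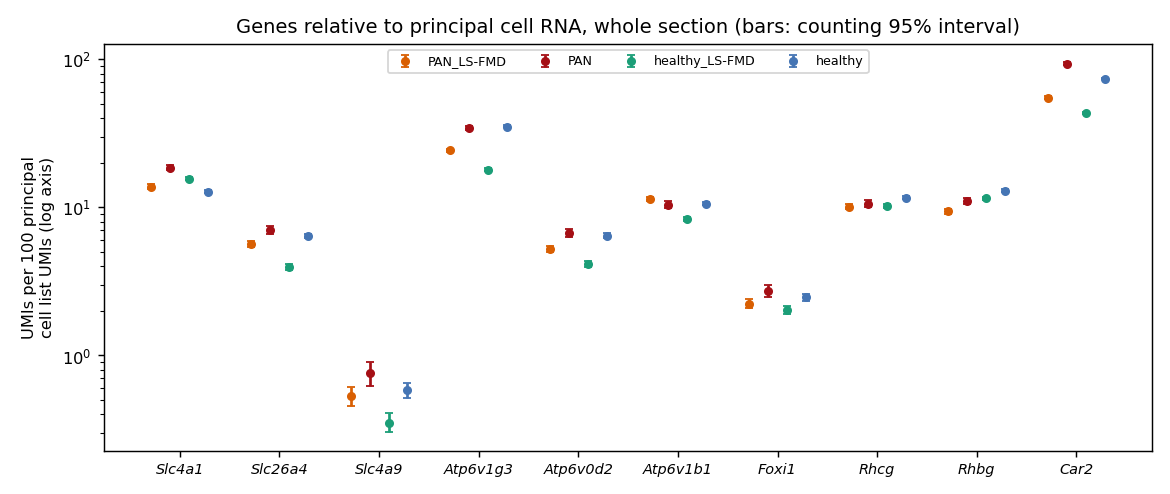
UMIs of each gene per 100 UMIs of 8 principal cell genes over whole sections, on a log axis, with 95% counting intervals and the sections in the order PAN_LS-FMD, PAN, healthy_LS-FMD and healthy from left to right. Slc4a1 is at 15.5 in healthy_LS-FMD against 12.7 in healthy, and Slc26a4 at 3.94 against 6.41.

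The other acid-base genes were counted in lists over whole sections. The shares of all genes were 10.6% higher and 37.4% lower in PAN_LS-FMD against PAN, 46% and 11.1% in PAN against healthy, 8.43% and 6.44% in PAN_LS-FMD against healthy, and 29.3% and 6.71% in healthy_LS-FMD against healthy. Among subunits of the V-ATPase, the broadly expressed counterparts of the B1, G3 and d2 subunits were Atp6v1b2 at 266.8, 269.5, 259.8 and 248 CPM, Atp6v1g1 at 495, 418, 459 and 533 CPM, and Atp6v0d1 at 442, 316, 432 and 422 CPM in PAN_LS-FMD, PAN, healthy_LS-FMD and healthy. None of these 3 passed 1.5-fold in any of the 4 comparisons over whole sections. Of 21 V-ATPase genes outside the members, these 3 included, 19 were measured in PAN_LS-FMD against PAN, with 2 higher and 1 lower, among them Atp6v0a4, the a4 subunit of intercalated cells, at 395 against 227 CPM (1.74-fold). Of the 20 tested in PAN against healthy, 3 were higher, a smaller share than the 46% of all genes, and 1 was lower. In PAN_LS-FMD against healthy 0 of 19 passed, and in healthy_LS-FMD against healthy 6 of 19 were higher and 1 lower, with the H subunit gene Atp6v1h at 142 against 73.7 CPM.

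A list of 22 other genes was kept for intercalated cells, though not all of them, Hes1 and Bsnd among them, are particular to these cells. In healthy_LS-FMD against healthy 19 were measured and 14 were higher, against 29.3% of all genes, with none lower, against 6.71%. Dmrt2 was 2.66-fold higher (2.38 to 2.97) and the Notch target gene Hes1 2.52-fold higher (2.38 to 2.66). In PAN_LS-FMD against PAN 2 of 19 were higher and 3 lower, and in PAN_LS-FMD against healthy 1 of 18 was higher and 1 lower. Of 19 tested in PAN against healthy, 5 were higher, below the 46% of all genes, and 2 were lower, against 11.1%. The higher ones included Lgals3 (5.54-fold, 5.27 to 5.83) and Kit (2.18-fold, 2 to 2.39), which macrophages and mast cells also express, and Lgals3 was 4.15-fold lower in PAN_LS-FMD than in PAN. In the PAN cortex 7 of 17 were lower than in healthy, against 11.5% of all genes, among them Bsnd, the chloride channel subunit barttin, at 20.3 against 52.7 CPM and Hepacam2 at 12.2 against 31.1 CPM, and 4 were higher, against 42.5%.

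Of a list of 13 other transporter genes of the Slc4, Slc26 and Slc9 families, not all of them exchangers, 9 were measured in each whole-section comparison. In healthy_LS-FMD against healthy 7 were higher, against 29.3% of all genes, and 1 was lower, against 6.71%, led by Slc4a11 (9.19-fold, 8.39 to 10.1) at 92.5 against 10.1 CPM. Slc4a11 was among the leading genes of medullary clusters in both sections. Medulla held 30.5% of UMIs in healthy_LS-FMD and 21.4% in healthy, and how much of the fold follows this was not tested. Slc26a7, a chloride-bicarbonate exchanger of medullary type A cells, was 2.76-fold higher in healthy_LS-FMD than in healthy (2.44 to 3.13). It was 3.86-fold lower in PAN than in healthy (2.90 to 5.25) and 2.80-fold higher in PAN_LS-FMD than in PAN (2.05 to 3.87). Slc26a6, an anion exchanger of proximal tubule, was highest in PAN among the 3 sections compared there, at 13.9 CPM in PAN_LS-FMD, 29.5 in PAN and 9.20 in healthy. In PAN_LS-FMD against PAN 1 of the 9 was higher, against 10.6% of all genes, and 5 were lower, against 37.4%. In PAN against healthy 3 were higher, against 46%, and 2 lower, against 11.1%, and in PAN_LS-FMD against healthy 1 was higher, against 8.43%, and 2 lower, against 6.44%. Of 13 other carbonic anhydrase genes 9 were measured, of which 4 were higher and 4 lower in PAN_LS-FMD against PAN (10.6% and 37.4% of all genes). In PAN against healthy 3 were higher and 4 lower (46% and 11.1%), in PAN_LS-FMD against healthy 0 and 1 (8.43% and 6.44%), and in healthy_LS-FMD against healthy 2 and 3 (29.3% and 6.71%). Car3 had 1.09 CPM in PAN_LS-FMD, 34.9 in PAN, 1.22 in healthy_LS-FMD and 6.33 in healthy, and Car7 had 23.7, 6.82, 15.8 and 28.3 CPM.

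Ammonia made in the proximal tubule is what the Rh channels pass into the urine, and its genes differed in both directions. All 8 genes of this list were measured. In PAN against healthy 2 were higher, against 46% of all genes, and 3 lower, against 11.1%, with the glutamine transporter Slc38a3 at 123 against 536 CPM and Pck1 (phosphoenolpyruvate carboxykinase) at 347 against 916 CPM. In PAN_LS-FMD against PAN 5 were higher, against 10.6%, and 2 lower, against 37.4%, with Slc38a3 at 627 against 123 CPM. None of the 8 passed in PAN_LS-FMD against healthy, and in healthy_LS-FMD against healthy 1 was higher, against 29.3%, and 4 were lower, against 6.71%, among them Pck1 at 463 against 916 CPM.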

How the data were processed

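The values deposited by the authors are raw UMI counts, 1 whole number for each gene in each spot. Per the file headers, the authors made those of PAN_LS-FMD, PAN and healthy_LS-FMD with Space Ranger 1.2.1 and that of healthy with Space Ranger 2.0.1. The genome build was not given in the sources used here. Images and spot positions were not used here.

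Spots under 500 UMIs were left out (2 to 5 per section). Each section was clustered alone (scanpy 1.11.5, leidenalg 0.10.2): counts scaled to 10000 and log-transformed, 2000 variable genes without the 10 members and 22 other intercalated cell genes, 30 principal components, 15 neighbours, Leiden resolution 1. A cluster took the zone of the marker list with the highest mean log2(CPM + 10), centred within the section. Doublets were not called because spots can cover several cells.

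UMIs were summed per section, zone and region. Levels have exact Poisson intervals, shares Clopper-Pearson intervals and folds exact conditional intervals of 2 Poisson counts (scipy 1.17.1), for counting error only. Genes with at least 20 UMIs over both sections were measured, and a fold of 1.5 was the call. A gene with 0 UMIs was set to a floor of 3 UMIs, worth 0.0512 to 0.120 CPM per section. The calculation of folds and intervals was checked on simulated Poisson counts. These hold counting error only, so the check says nothing on scaling or on differences between animals. Likeness used genes with at least 200 UMIs. All members were named. In the other lists up to 4 genes with the largest folds and at least 50 UMIs over both sections were named, with the counterparts of the 3 pump subunits and the 5 genes most like each side. Companion genes and zones by nephron lists alone were added after seeing the data. Alternatives covered scaling, thresholds, clustering, zones, thinning and haemoglobin-rich spots. The members, lists and comparisons were chosen with earlier results of these data known.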

Additional observations from a re-analysis of the deposited data

How the results depend on the processing

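The whole-section counts of members past 1.5-fold depended on the scaling and on the threshold. The members higher in PAN_LS-FMD than in PAN were 2 in the main setting, 7 with size factors by median of ratios and 0 at 2-fold. The members lower in PAN than in healthy were 2, 9 and 0 under the same 3 settings, and those higher in healthy_LS-FMD than in healthy were 6, 4 and 3. The 4 members lower in the PAN_LS-FMD cortex than in the healthy cortex became 1 at Leiden resolution 0.5, 0 at resolution 2, 0 with zones from single spots and 0 with zones by the nephron lists alone, where the region led by Calb1 was counted as cortex. The other cortical counts stayed within 1.5 times of the main ones in all zone settings.

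In medulla the base-secreting genes changed direction with the zone. Slc26a4 in PAN_LS-FMD over PAN was at a fold of 1.28 with zones from single spots. In healthy_LS-FMD over healthy, Slc26a4 was at 1.52 and Slc4a9 at 1.86 when the members were kept among the clustered genes, and at 1.15 and 1.24 with zones from single spots. The cause was not tested.

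The whole-section acid share with Slc26a4 alone as the base-secreting gene was 70.9% in PAN_LS-FMD, 72.6% in PAN, 79.7% in healthy_LS-FMD and 66.4% in healthy. With each spot thinned to 4000 UMIs it was 67.8% in PAN_LS-FMD and 76.6% in healthy_LS-FMD, and without the 10% of spots highest in haemoglobin it was 79.1% in healthy_LS-FMD. The acid to base ratio was 1.13 for PAN_LS-FMD over healthy and 1.75 for healthy_LS-FMD over healthy after thinning. With Dmrt2 against Hmx2 and Insrr it was 0.738 for PAN_LS-FMD over PAN, 0.935 for PAN over healthy, 0.690 for PAN_LS-FMD over healthy and 1.53 for healthy_LS-FMD over healthy. The ratio of PAN_LS-FMD over healthy thereby reversed. That of PAN over healthy fell below 1, but the Dmrt2 shares of PAN (22.7 to 27.7%) and healthy (24.6 to 28.2%) overlapped within counting error. The cause was not tested. Slc26a4 and Slc4a9 per principal cell UMI in PAN over healthy were at 0.995, close to equal, with Aqp2 alone as the principal cell gene. Zones by the nephron lists alone and the Dmrt2 reading were chosen after seeing the data. No paired analysis was possible because each group had 1 section. Counting error is small for most members at these depths, and Slc4a9, with 118 to 302 UMIs per section, had the widest intervals.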
